A study of Mus musculus with 10 samples.

Results

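The BCL2 family decides whether mitochondria release the proteins that start apoptosis, and 10 of its genes were followed here in mouse muscle stem cells, out of 12803 genes in the deposited table. They were chosen by symbol, from 3 classes: the survival members Bcl2, Bcl2l1 and Mcl1, the effectors Bax and Bak1, and the BH3-only members Bad, Bid, Bbc3, Bcl2l11 and Bmf. All 10 were present, each in a single row. The cells came from limb muscle of young male C57BL/6 mice without any engineered allele named in the labels, and were sorted for VCAM in the absence of CD45, CD31 and Sca1 (VCAM+, CD45-, CD31-, Sca1-). Fresh cells (0 h, n = 3) were used straight after sorting. Vehicle cells (n = 3) spent 24 h in culture with 10% horse serum and the solvent DMSO. Tubastatin A cells (n = 4) spent 24 h in the same medium with 40 µM Tubastatin A, a small molecule that blocks the deacetylase HDAC6. The fresh libraries also carry the treatment label vehicle, although they had no time in culture. Each library held the cells of 1 animal.

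BCL2, BCL-XL (the main product of Bcl2l1) and MCL1 hold BAX and BAK in check at the outer membrane of mitochondria. When BAX or BAK is freed, it makes pores there, cytochrome c leaves, and the apoptosome activates caspases. BH3-only proteins are the sensors upstream: they bind the survival proteins, and some also activate BAX and BAK directly. MCL1 is known for the short life of both its RNA and its protein.

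Levels are RPKM, a unit inferred from the values: reads per kilobase of exon relative to a library size scaled by the authors, so levels of different genes can be compared per length. Log2 changes are differences of log2(RPKM + 1) from limma, with their standard error (SE) and a p adjusted over all 12803 genes. A gene is called changed at an adjusted p under 0.05. The added 1 RPKM shrinks changes of low genes. For these the log2 change of recovered reads, from limma's voom, is given as well. All 10 members gave whole reads in every library. The libraries held 37622503 to 55426123 reads in the table, and members were covered by 13 reads (Bak1 in a fresh library, Bmf in a vehicle library) to 73424 reads (Mcl1 in a fresh library).

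Promoter sequence is shown for the members with the largest fall and rise in vehicle against fresh, Mcl1 and Bax. It is also shown for 3 members whose window holds a match to a motif of E2F or FoxO factors. Each line gives the 250 bases before a RefSeq start (GRCm38.p6), 5′ to 3′ on the strand of the gene. Capitals mark matches, on either strand, to GGGCGG (the GC box bound by SP1), TGTTTAC (FoxO), TTTCGCGC (E2F), TTCNNNGAA (STAT), or to the NF-kB and p53 half-site consensus. Matches of different motifs do not overlap in these lines.
Mcl1, chr3:95658471-95658720, plus strand: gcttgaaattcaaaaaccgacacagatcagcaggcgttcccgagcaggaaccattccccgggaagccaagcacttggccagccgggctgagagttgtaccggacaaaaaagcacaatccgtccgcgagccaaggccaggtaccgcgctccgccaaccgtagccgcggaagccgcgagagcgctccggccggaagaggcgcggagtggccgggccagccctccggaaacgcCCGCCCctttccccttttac
Bax, chr7:45466899-45467148, minus strand: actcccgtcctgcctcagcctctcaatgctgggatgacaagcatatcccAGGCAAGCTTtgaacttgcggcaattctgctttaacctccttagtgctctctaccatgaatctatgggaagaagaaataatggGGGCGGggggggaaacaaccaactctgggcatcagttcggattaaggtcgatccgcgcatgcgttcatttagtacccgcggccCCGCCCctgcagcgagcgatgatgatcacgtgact
Bcl2l1, chr2:152830718-152830967, minus strand: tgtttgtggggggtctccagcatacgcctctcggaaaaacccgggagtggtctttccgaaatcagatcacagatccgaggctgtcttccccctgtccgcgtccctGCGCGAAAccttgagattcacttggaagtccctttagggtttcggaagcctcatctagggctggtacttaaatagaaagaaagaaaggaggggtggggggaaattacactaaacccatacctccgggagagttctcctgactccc
Bcl2l11, chr2:128125788-128126037, plus strand: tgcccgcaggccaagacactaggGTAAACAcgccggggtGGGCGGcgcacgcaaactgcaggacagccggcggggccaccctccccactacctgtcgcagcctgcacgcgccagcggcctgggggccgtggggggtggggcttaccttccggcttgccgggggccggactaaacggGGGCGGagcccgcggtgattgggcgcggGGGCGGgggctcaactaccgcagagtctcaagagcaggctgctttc
Bbc3, chr7:16310011-16310260, plus strand: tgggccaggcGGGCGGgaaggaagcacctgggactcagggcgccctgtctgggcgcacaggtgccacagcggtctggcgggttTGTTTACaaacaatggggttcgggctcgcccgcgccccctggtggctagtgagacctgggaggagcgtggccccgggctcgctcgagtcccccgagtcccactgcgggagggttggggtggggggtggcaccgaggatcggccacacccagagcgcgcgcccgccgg
The Mcl1 window holds 1 GC box. The Bax window holds 2 GC boxes and a p53 half-site at position -201, counted from the RefSeq start. In Bcl2l1, which has 3 RefSeq starts, the E2F letters begin at -145 of the second, with starts numbered by coordinate. In Bcl2l11 the FoxO letters begin at -227 of the first of 2 starts, and in Bbc3 at -167 of the second of 3. Among 32851 mouse windows of this length, 32.7% held a GC box, 7.13% a p53 half-site, 7.02% the STAT letters, 3.17% the FoxO letters, 0.256% the E2F letters and 0.140% the NF-kB letters. A match describes letters only.

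In culture with vehicle, 4 of the 10 members rose and 4 fell, and Bad and Bbc3 did not pass, against 67% of all genes that changed (32% higher, 35% lower). Mcl1, Bcl2, Bcl2l11 and Bmf fell, and Bax, Bid, Bcl2l1 and Bak1 rose. This even split depended on the scaling of libraries: 6 rose and 2 fell with scaling by table reads alone, and 5 rose and 2 fell with scaling to the same RPKM sum. With Tubastatin A relative to vehicle, 4 members fell (Bcl2l1, Bax, Bbc3 and Bcl2), 1 rose (Bmf) and 5 did not pass, where 59.3% of all genes changed (29.6% higher, 29.7% lower). With Tubastatin A relative to fresh cells, 3 members rose (Bax, Bid and Bak1) and 4 fell (Mcl1, Bcl2, Bbc3 and Bcl2l11), where 64.9% of all genes changed (29.8% higher, 35.2% lower). The test on recovered reads called 8, 5 and 7 members in the same comparisons, where it called 69.1%, 63.5% and 66.8% of 11953 genes. The libraries of the groups did not overlap for 8, 5 and 7 members, against 67.6%, 68.6% and 61.3% of all genes. These shares are close to those of the whole table, so the counts do not set the family apart. The 3 comparisons share libraries and are not independent of each other. The median log2 change of the members was -0.03, -0.15 and 0.01 in this order, against -0.03, 0.02 and -0.03 over all genes.

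**Figure D1:**
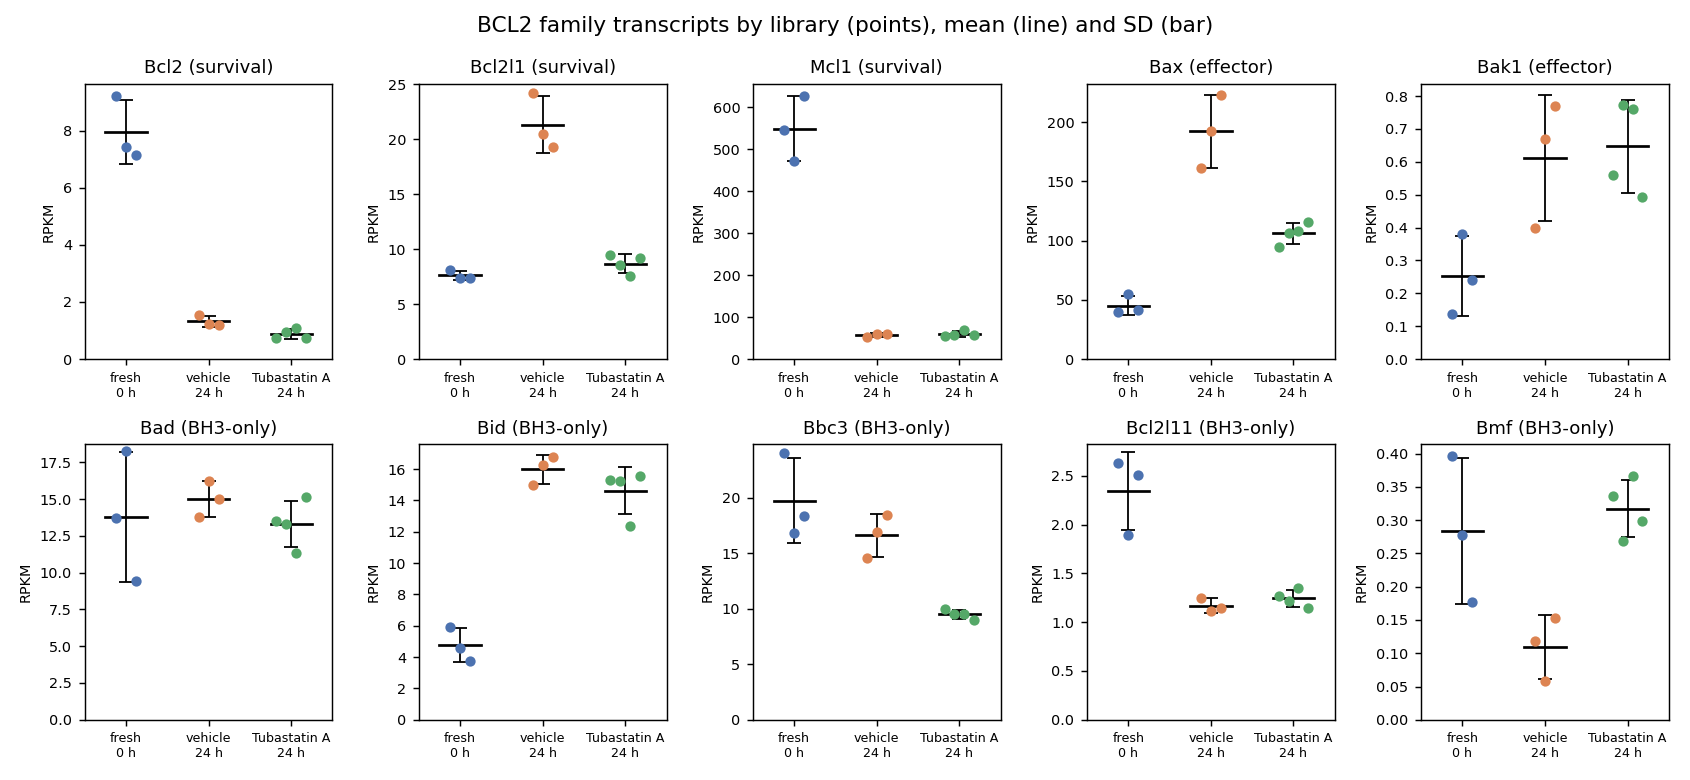
RPKM of the 10 members in each library (points), with the mean (line) and SD (bar) of the 3 fresh, 3 vehicle and 4 Tubastatin A libraries; each panel has its own axis from 0. Mcl1 stands at 473 to 627 RPKM in fresh and under 70 RPKM in all cultured libraries, whereas Bcl2l1 is high only in the vehicle libraries, at 19.3 to 24.2 RPKM.

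Mcl1 (chr3:95658788-95663176, plus strand) was the most abundant survival transcript in every library. It measured 546, 473 and 627 RPKM in fresh, 52.9, 59.6 and 59.8 in vehicle, and 55.7, 58.3, 69.7 and 56.5 in Tubastatin A cells. The fresh libraries lay far above all cultured ones, and the cultured groups overlapped. In vehicle its mean was 9.55-fold lower than in fresh, which is a log2 change of -3.23 (SE 0.14, adjusted p = 3.2e-09). Relative to fresh the Tubastatin A cells had a change of -3.17 (SE 0.13, adjusted p = 2.7e-09). Between Tubastatin A and vehicle the difference was 0.06, with a 95% interval of -0.23 to 0.35, and did not pass (adjusted p = 0.73).

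Bcl2 (chr1:106538178-106714274, minus strand), the founding survival gene, stood at 9.23, 7.45 and 7.16 RPKM in fresh cells. It fell to 1.55, 1.22 and 1.20 in vehicle cells and stood at 0.751, 0.965, 1.08 and 0.731 in Tubastatin A cells. No 2 groups overlapped, and the order was fresh, vehicle, Tubastatin A. The fall in vehicle was 6.01-fold between means, with a log2 change of -1.94 (SE 0.13, adjusted p = 1.1e-07), or -2.59 on recovered reads. With Tubastatin A the mean lay 9.03-fold below fresh (log2 change -2.25, adjusted p = 2.2e-08; -3.19 on recovered reads).

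The further step from vehicle to Tubastatin A was small for Bcl2 and close to the threshold, with a log2 change of -0.30 (SE 0.12, adjusted p = 0.049; -0.61 on recovered reads, adjusted p = 0.015). This call was lost without vehicle replicate 1, 2 or 3 (-0.24, -0.34 and -0.34) and without Tubastatin A replicate 1, 2 or 4 (-0.27, -0.33 and -0.27). It was also lost with scaling by upper quartile (-0.25, adjusted p = 0.13), to the same RPKM sum (-0.26, adjusted p = 0.13) or by table reads alone (-0.28, adjusted p = 0.079), and with 5 RPKM added in place of 1 (-0.10, adjusted p = 0.15). Part of the Bcl2 exons, 558 bases, is also exon of D630008O14Rik on the other strand.

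Bcl2l1 (chr2:152780668-152831728, minus strand), the gene of BCL-XL, moved against the other survival members in culture. Its levels were 8.08, 7.40 and 7.39 RPKM in fresh, 24.2, 20.5 and 19.3 in vehicle, and 9.45, 8.51, 7.57 and 9.19 in Tubastatin A cells. Every vehicle library was above every other library, and the fresh and Tubastatin A libraries overlapped. The rise in vehicle was 2.80-fold between means, a log2 change of 1.37 (SE 0.12, adjusted p = 1.1e-06). With Tubastatin A the mean lay 2.45-fold below vehicle, a log2 change of -1.20 (SE 0.11, adjusted p = 3.3e-06). Against fresh cells the Tubastatin A level differed by 0.16, with an interval of -0.09 to 0.41, and did not pass (adjusted p = 0.23). With libraries scaled by table reads alone it passed, at 0.76, and with scaling to the same RPKM sum or the upper quartile at 0.80 and 0.33. The table gives 1 value per gene, so the long survival form and the short death-promoting form of this transcript are not separated.

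Bax (chr7:45461697-45466898, minus strand), the pore-forming effector, was the most abundant member in both cultured groups. It stood at 40.0, 54.5 and 41.1 RPKM in fresh, 161, 193 and 223 in vehicle, and 94.2, 106, 108 and 116 in Tubastatin A cells. The 3 groups did not overlap, and the Tubastatin A libraries lay between the other 2 groups. Vehicle was 4.25-fold above fresh between means, a log2 change of 2.07 (SE 0.16, adjusted p = 3.3e-07). Tubastatin A was 1.81-fold below vehicle, with a change of -0.84 (SE 0.15, adjusted p = 4.5e-04), and 2.35-fold above fresh, with a change of 1.22 (SE 0.15, adjusted p = 1.9e-05). Scaling by reads in the table alone or to the same RPKM sum gave 1.90 and 1.93 for the last of these. Of its 1576 exon bases, 192 are shared with the predicted gene Gm45808 on the same strand.

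Bak1 (chr17:27019810-27029009, minus strand), the other effector, was barely detected, and Bax made up 99.3% to 99.8% of the effector sum in every library. Bak1 measured 0.137, 0.380 and 0.241 RPKM in fresh cells (13 to 27 reads), 0.398, 0.669 and 0.769 in vehicle and 0.559, 0.773, 0.762 and 0.494 in Tubastatin A cells (46 to 107 reads). All cultured libraries were above all fresh ones, and the cultured groups overlapped. On recovered reads the log2 change was 1.35 (SE 0.49, adjusted p = 0.026) in vehicle and 1.46 (SE 0.46, adjusted p = 0.013) with Tubastatin A, both against fresh cells. On the RPKM scale these were 0.36 (adjusted p = 0.014) and 0.40 (adjusted p = 0.0060), and the first was lost without vehicle replicate 3, at 0.29 (adjusted p = 0.061). Between the cultures Bak1 differed by 0.11 on recovered reads, with an interval of -0.64 to 0.87, and did not pass. Exons of Bak1 and of Ggnbp1 on the other strand share 614 bases.

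**Figure D2:**
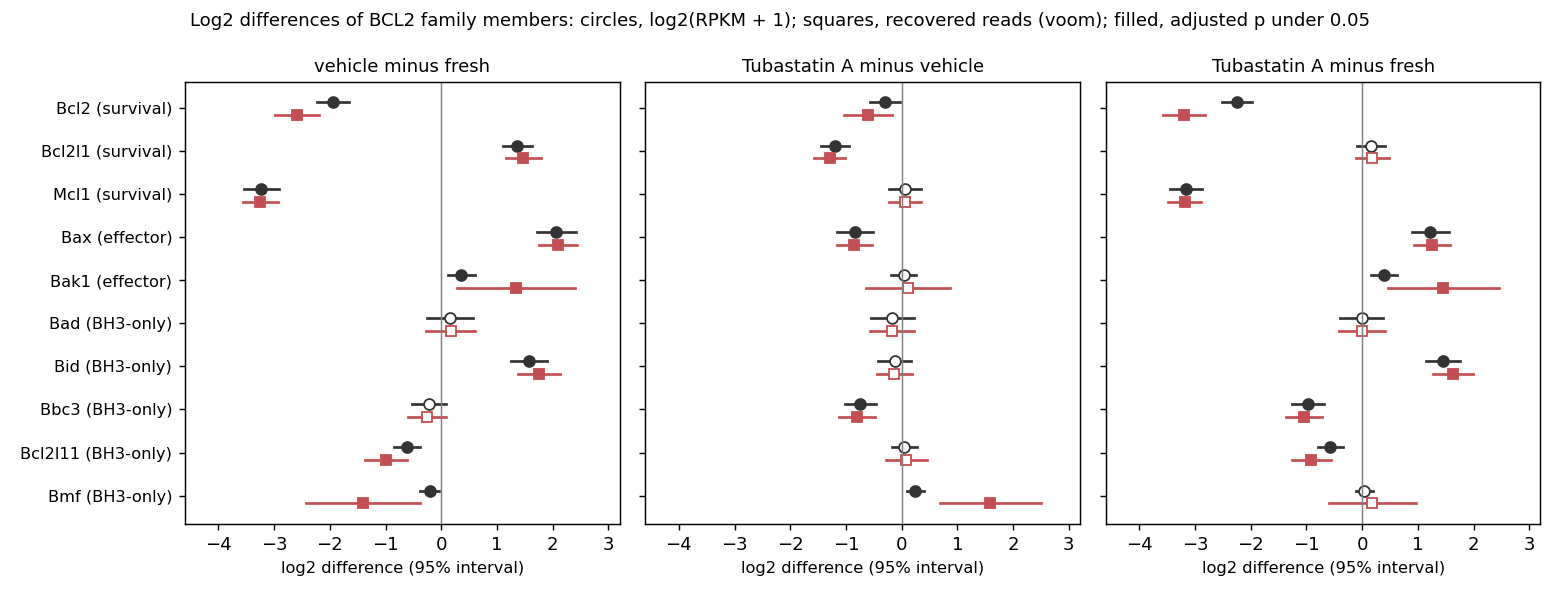
Log2 difference of each member in the 3 comparisons with its 95% interval: circles from log2(RPKM + 1), squares from recovered reads, filled where the adjusted p is under 0.05. Bcl2l1 and Bax lie to the right of 0 in vehicle against fresh and to the left in Tubastatin A against vehicle, and the squares of the low genes Bak1 and Bmf lie farther out than their circles.

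Among the BH3-only members, Bid rose in both cultures. Bid (chr6:120891930-120916853, minus strand), which links death receptors to mitochondria once caspase-8 cuts it, stood at 5.94, 4.59 and 3.77 RPKM in fresh cells. It reached 15.0, 16.3 and 16.8 in vehicle and 15.3, 15.3, 12.4 and 15.5 in Tubastatin A cells. All cultured libraries lay above the fresh ones. The log2 change was 1.57 (SE 0.15, adjusted p = 1.6e-06) in vehicle and 1.45 (SE 0.14, adjusted p = 2.2e-06) with Tubastatin A, each against fresh. The cultures differed by -0.12, with an interval of -0.42 to 0.17, which did not pass. Bid shares 628 exon bases with Bcl2l13, another family member that runs on the other strand, and use of strand in counting is not given in the sources used here.

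Bbc3 (chr7:16308393-16318205, plus strand), the gene of PUMA, a p53 target that binds all survival proteins, was lower with Tubastatin A than in either other group. It measured 24.1, 16.8 and 18.4 RPKM in fresh, 14.6, 16.9 and 18.4 in vehicle, and 9.97, 9.55, 9.52 and 9.02 in Tubastatin A cells. The Tubastatin A libraries were close together and below all others, and the fresh and vehicle libraries overlapped. Tubastatin A was 1.75-fold below vehicle, a log2 change of -0.74 (SE 0.13, adjusted p = 4.1e-04), and 2.08-fold below fresh, a change of -0.97 (SE 0.13, adjusted p = 4.1e-05). Vehicle and fresh differed by -0.23 (adjusted p = 0.17), which passed at -0.33 without fresh replicate 2. That difference turned to 0.35 (adjusted p = 0.039) with scaling by table reads alone and to 0.34 (adjusted p = 0.053) with scaling to the same RPKM sum. The fall against fresh was then -0.33 and -0.29, and the second did not pass (adjusted p = 0.070).

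Bcl2l11 (chr2:128126038-128162547, plus strand), the gene of BIM, a sensor of lost growth factor signals under FoxO control, was lower in both cultures. It stood at 2.63, 1.89 and 2.51 RPKM in fresh, 1.25, 1.11 and 1.15 in vehicle, and 1.27, 1.22, 1.35 and 1.14 in Tubastatin A cells. Every fresh library was above every cultured one. On recovered reads the log2 change was -0.99 (SE 0.18, adjusted p = 2.0e-04) in vehicle and -0.91 (SE 0.16, adjusted p = 2.0e-04) with Tubastatin A. On the RPKM scale these were -0.62 and -0.57 (adjusted p = 3.3e-04 and 4.1e-04). With scaling by reads in the table alone they were -0.23 and -0.13 and did not pass, and with scaling to the same RPKM sum -0.23 and -0.11. Between the cultures the difference was 0.05, with an interval of -0.18 to 0.27.

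Bmf (chr2:118528757-118549687, minus strand), a sensor tied to the cytoskeleton, was the only member higher with Tubastatin A than with vehicle in these tests. It measured 0.397, 0.277 and 0.178 RPKM in fresh (29 to 82 reads), 0.119, 0.0578 and 0.153 in vehicle (13 to 36 reads), and 0.336, 0.268, 0.366 and 0.299 in Tubastatin A cells (78 to 110 reads). The vehicle libraries were below all others, and the fresh and Tubastatin A libraries overlapped. On recovered reads it changed by -1.41 (SE 0.48, adjusted p = 0.017) from fresh to vehicle and by 1.59 (SE 0.42, adjusted p = 0.0049) from vehicle to Tubastatin A. On the RPKM scale these were -0.21 (adjusted p = 0.030) and 0.25 (adjusted p = 0.011). The first was lost without vehicle replicate 1 (-0.21, adjusted p = 0.058), vehicle replicate 2 (-0.17) or fresh replicate 1 (-0.14), and at -0.10 with scaling by reads alone or to the same RPKM sum. The second was lost without vehicle replicate 2 (0.21, adjusted p = 0.052).

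Bad (chr19:6941861-6951899, plus strand), whose protein is held inactive by phosphorylation downstream of growth factors, passed in none of the 3 comparisons. It measured 13.7, 18.3 and 9.44 RPKM in fresh, 13.8, 16.2 and 15.0 in vehicle, and 13.5, 13.3, 11.4 and 15.1 in Tubastatin A cells. All groups overlapped, and the fresh libraries spanned the values of both cultures. Its log2 change had an interval of -0.26 to 0.57 from fresh to vehicle, of -0.56 to 0.23 from vehicle to Tubastatin A and of -0.40 to 0.38 from fresh to Tubastatin A. With scaling by reads in the table alone Bad passed as higher than fresh in both cultures, at 0.71 and 0.62. Exons of Bad and of Gpr137 on the other strand share 524 bases.

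Set against each other, survival transcripts exceeded effector transcripts in fresh cells and were below them in both cultures. The summed survival level was 564, 488 and 642 RPKM in fresh, 78.7, 81.3 and 80.3 in vehicle, and 65.9, 67.8, 78.3 and 66.4 in Tubastatin A cells. The sum of Bax and Bak1 was 45.4 ± 8.19 (SD, n = 3), 193 ± 31.1 (SD, n = 3) and 107 ± 9.06 RPKM (SD, n = 4) in the same order. Their ratio, which no scaling of libraries can change, was 14.0, 8.89 and 15.5 in fresh, 0.488, 0.420 and 0.359 in vehicle, and 0.695, 0.635, 0.717 and 0.570 in Tubastatin A cells. The 3 groups did not overlap, with the Tubastatin A libraries above vehicle and far below fresh. This order depends on Mcl1, the largest part of the survival sum. The effector sum leaves out Bok, a pore-forming relative, at 92.1 ± 13.6 RPKM in fresh, 109 ± 5.98 in vehicle and 27.1 ± 1.67 in Tubastatin A cells. The sizes of the ratio thus hold for the chosen genes only. Bcl2 and Bcl2l1 alone summed to 15.6 ± 1.51 RPKM in fresh, 22.6 ± 2.76 in vehicle and 9.56 ± 0.678 with Tubastatin A. The ratio of Bax to Bcl2l1 was 5.96 ± 1.26, 9.21 ± 2.46 and 12.3 ± 1.79 in this order. Its mean was thus highest with Tubastatin A, although the libraries of the 2 cultures overlapped. These ratios are descriptions of chosen genes and carry no test, and RNA levels do not give the amounts of the proteins.

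**Figure D3:**
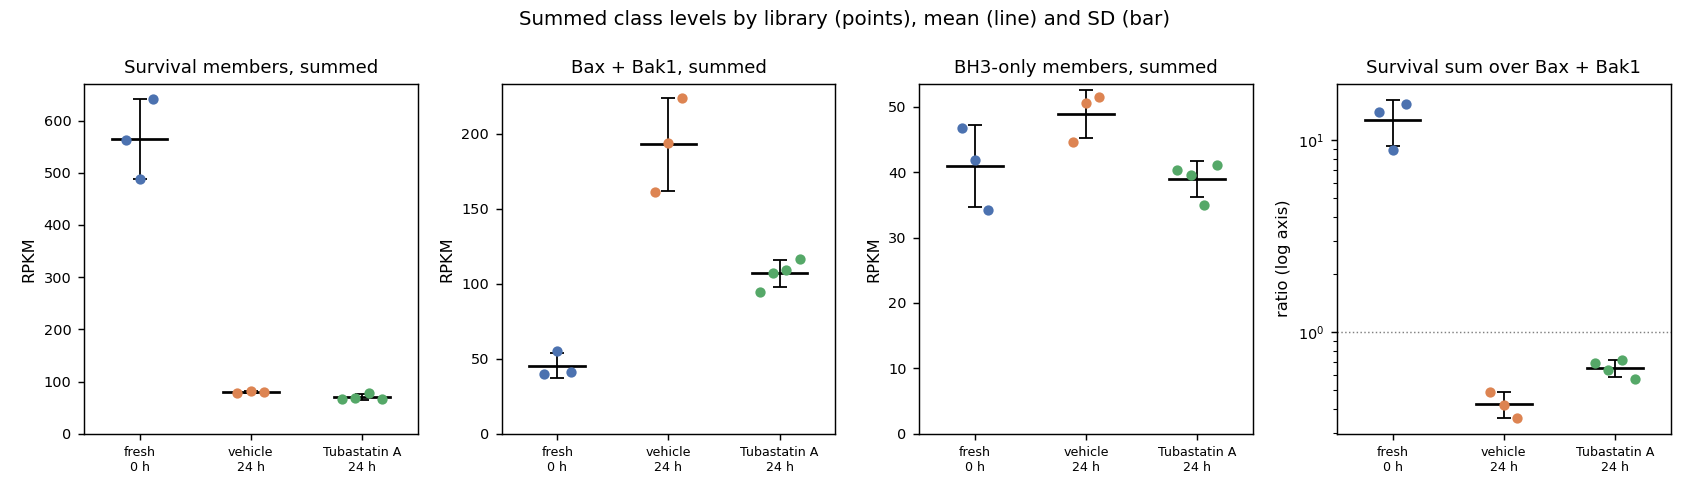
Summed RPKM of the survival members, of Bax and Bak1, and of the 5 BH3-only members, and the ratio of the survival to the effector sum (log axis, dotted line at 1), by library with mean and SD. The ratio lies between 8.89 and 15.5 in fresh and under 1 in all cultured libraries. The sums of these 5 BH3-only members, which leave out Pmaip1, lie between 34.3 and 51.5 RPKM in the 3 groups.

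The BH3-only sum was 41.0 ± 6.28 RPKM in fresh, 48.9 ± 3.70 in vehicle and 39.0 ± 2.77 in Tubastatin A cells (SD, n = 3, 3 and 4). Mcl1 gave 97.2% ± 0.457 of the survival sum in fresh cells, 71.7% ± 3.87 in vehicle and 86.1% ± 1.98 with Tubastatin A. Bcl2l1 gave 1.37% ± 0.192, 26.6% ± 3.60 and 12.6% ± 2.09 of it. The ratio of Bcl2l1 to Bcl2 was 0.967 ± 0.0815 in fresh, 16.2 ± 0.616 in vehicle and 10.3 ± 2.78 in Tubastatin A cells. Within the BH3-only sum, Bbc3 led in fresh cells at 48.4% ± 7.21, stood at 33.9% ± 1.65 in vehicle and came after Bid and Bad with Tubastatin A, at 24.5% ± 2.17. Bid made up 11.6% ± 0.992 of that sum in fresh, 32.7% ± 0.706 in vehicle and 37.4% ± 1.38 with Tubastatin A. These shares carry no test.

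By level per length, the fresh order was Mcl1, Bax, Bbc3, Bad, Bcl2, Bcl2l1, Bid, Bcl2l11, Bmf, Bak1. The neighbours Bbc3 and Bad, Bcl2 and Bcl2l1, and Bmf and Bak1 overlapped there between libraries. In vehicle it was Bax, Mcl1, Bcl2l1, Bbc3, Bid, Bad, Bcl2, Bcl2l11, Bak1, Bmf, with overlaps among Bbc3, Bid and Bad and between Bcl2 and Bcl2l11. With Tubastatin A it was Bax, Mcl1, Bid, Bad, Bbc3, Bcl2l1, Bcl2l11, Bcl2, Bak1, Bmf. Overlapping neighbours there were Bid and Bad, Bbc3 and Bcl2l1, and Bcl2 and Bak1.

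Other relatives of the family moved in both directions. Of 15 listed, 9 were analysed here, and 2 rose, 3 fell and 4 did not pass in vehicle against fresh. Against vehicle, 3 rose and 4 fell with Tubastatin A. Over all genes 32% rose and 35% fell in the first comparison, and 29.6% rose and 29.7% fell in the second. Pmaip1, the BH3-only gene of NOXA, which binds MCL1, fell from 51.4 ± 3.72 RPKM in fresh to 4.47 ± 0.730 in vehicle and stood at 8.59 ± 1.56 with Tubastatin A. Its log2 change was -3.27 (SE 0.15, adjusted p = 4.9e-09) in vehicle. Bok, another pore-forming relative, stood at 92.1 ± 13.6 in fresh and 109 ± 5.98 in vehicle and fell to 27.1 ± 1.67 RPKM with Tubastatin A (log2 change -1.97 against vehicle, adjusted p = 7.4e-08). Bok thus lay at a higher level per length than Bax in fresh cells and well above Bak1 in all groups. Bcl2l15 was found mainly in vehicle, at 2.05 ± 0.413 RPKM against 0.0296 ± 0.0239 in fresh and 0.0542 ± 0.0504 with Tubastatin A. Bnip3l, a mitophagy receptor, rose with Tubastatin A from 29.5 ± 1.03 to 75.5 ± 5.60 RPKM (log2 change 1.32, adjusted p = 1.8e-06).

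Among genes of mitochondrial release and the apoptosome, more rose than fell in vehicle and more fell than rose with Tubastatin A. Of these 10 genes, 7 rose and none fell in vehicle against fresh, with a median log2 change of 0.77 against -0.03 over all genes, where 32% rose and 35% fell. With Tubastatin A against vehicle 2 rose and 6 fell, with a median of -0.55 against 0.02 over all genes, where 29.6% rose and 29.7% fell. The 2 that rose were Casp9 (log2 change 0.65, adjusted p = 0.0099) and Diablo (0.67, adjusted p = 0.0012). Those 2 and Apaf1 were the 3 that did not pass in vehicle against fresh. Apaf1 did not pass with Tubastatin A against vehicle either. Htra2, a protease released with cytochrome c, stood at 10.5 ± 1.02 RPKM in fresh, 31.5 ± 0.724 in vehicle and 14.4 ± 1.11 with Tubastatin A. Endog, a mitochondrial nuclease, stood at 6.81 ± 1.26, 14.4 ± 0.372 and 4.73 ± 0.378 RPKM.

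Of 5 caspase inhibitors, 4 fell and none rose with Tubastatin A against vehicle, where 29.7% of all genes fell. In vehicle 1 rose and 2 fell against fresh, where 32% of all genes rose and 35% fell. Birc3, an inhibitor induced by NF-kB, fell from 124 ± 17.2 RPKM in fresh to 8.10 ± 0.928 in vehicle and 4.96 ± 0.203 with Tubastatin A. Birc5, the survivin gene that also serves mitosis, rose from 2.34 ± 0.619 to 19.0 ± 2.47 RPKM in vehicle and stood at 0.390 ± 0.195 with Tubastatin A. Of 8 death receptor genes analysed here, 4 rose and 3 fell in vehicle, and 3 rose and 3 fell with Tubastatin A against vehicle. Over all genes 32% rose and 35% fell in vehicle, and 29.6% rose and 29.7% fell with Tubastatin A. Casp8, whose product cuts the Bid protein, stood at 5.37 ± 0.822 RPKM in fresh, 22.1 ± 1.65 in vehicle and 5.51 ± 0.324 with Tubastatin A (log2 changes of 1.86 and -1.82, adjusted p = 9.6e-08 and 1.2e-07). The receptors Fas and Tnfrsf1a and the adaptor kinase Ripk1 fell in vehicle. Fas stood at 206 ± 84.3 RPKM in fresh and 8.42 ± 1.93 in vehicle, Tnfrsf1a at 210 ± 67.1 and 25.3 ± 4.22, and Ripk1 at 50.03 ± 12.1 and 6.87 ± 0.376 RPKM.

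Of 11 transcription factors that act on these genes, 2 rose and 8 fell in vehicle against fresh. Over all genes 32% rose and 35% fell. The median log2 change of the factors was -1.95, against -0.03 over all genes. Jun, among those that fell, is also counted with the genes of dissociation stress below. With Tubastatin A against vehicle 6 factors rose and 2 fell, where 29.6% of all genes rose and 29.7% fell. Stat3, an activator of Mcl1 and Bcl2l1, stood at 207 ± 67.9 RPKM in fresh, 8.63 ± 1.39 in vehicle and 27.6 ± 3.44 with Tubastatin A. Ddit3, the stress factor CHOP that acts on Bcl2l11, stood at 54.0 ± 6.44, 7.07 ± 0.0965 and 50.4 ± 5.88 RPKM. E2f1, a factor of S phase entry, stood at 9.24 ± 1.35, 54.8 ± 3.49 and 3.71 ± 0.292 RPKM, and Foxo1 at 20.95 ± 4.55, 4.32 ± 0.196 and 8.80 ± 0.255 RPKM. Of 5 genes for turnover of family proteins, 1 rose and 3 fell in vehicle and 3 rose and none fell with Tubastatin A. These counts stand against the same shares of all genes. The 3 that fell in vehicle were Btrc (log2 change -0.58, adjusted p = 8.2e-04), Usp9x (-0.81, adjusted p = 0.012) and Huwe1 (-0.43, adjusted p = 0.030). The 1 that rose, Fbxw7, a ubiquitin ligase subunit that targets MCL1, stood at 1.92 ± 0.413 RPKM in fresh and 3.14 ± 0.272 in vehicle (log2 change 0.51, adjusted p = 0.0060), and at 4.34 ± 0.477 with Tubastatin A (0.37 against vehicle, adjusted p = 0.028).

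**Figure D4:**
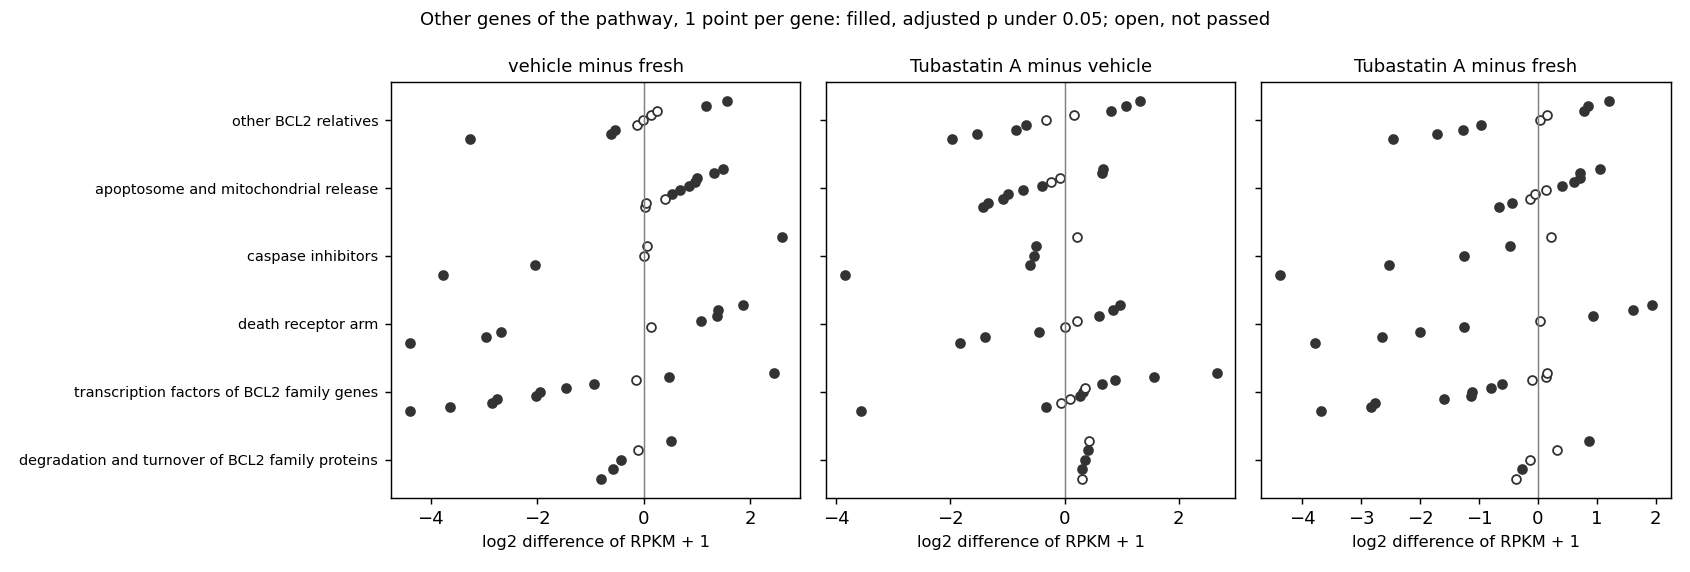
Log2 difference of RPKM + 1 for other genes of the pathway in the 3 comparisons, 1 point per gene and 1 row per list; filled points have an adjusted p under 0.05. The apoptosome and release genes lie at or to the right of 0 in vehicle against fresh. With Tubastatin A against vehicle 6 of 10 pass as lower and 2 as higher.

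Fresh libraries differed from cultured ones in more than time. In 10 of 10 genes of dissociation stress, such as Fos and Hspa1a, levels fell in vehicle, and their summed level was 24151 to 52752 RPKM in fresh, 709 to 782 in vehicle and 1610 to 1978 RPKM with Tubastatin A. Endothelial markers fell in 8 of 8, fibro-adipogenic in 6 of 7, pericyte in 4 of 5, myofibre in 3 of 7, and both analysed immune and both erythroid markers fell in vehicle against fresh. Over all genes 35% fell. The myofibre markers that did not pass (Mb, Myh1, Mylpf and Acta1) were also lower in every vehicle library than in every fresh one. With Tubastatin A against vehicle, 1 endothelial, 1 immune, 1 fibro-adipogenic and 1 pericyte marker rose, 2 fibro-adipogenic and 1 pericyte marker fell, and no erythroid or myofibre marker passed. Summed endothelial markers stood at 41.9 to 52.4 RPKM in fresh and 1.83 to 2.52 in vehicle, and fibro-adipogenic ones at 422 to 815 and 39.8 to 47.4. Most of the fibro-adipogenic sum in fresh was Col3a1, at 407 ± 207 RPKM, and Dpt, at 145 ± 11.6. Pdgfra, the fibro-adipogenic marker that did not pass (adjusted p = 0.097), stood at only 0.117 ± 0.106 RPKM in fresh. Muscle stem cell markers summed to 2809 to 3780 RPKM in fresh, 1528 to 1752 in vehicle and 783 to 862 with Tubastatin A, and all 9 of these markers were measured. Myod1 made up most of the sum in both cultures. It stood at 757 ± 426 RPKM in fresh, 1186 ± 101 in vehicle and 539 ± 29.9 with Tubastatin A. Every vehicle library was above every fresh one for Myod1, without passing (adjusted p = 0.076). Of the 9 markers 7 fell in vehicle, and 6 fell and 2 rose with Tubastatin A against vehicle, where 8 of 10 stress genes rose. Of 8 immune markers only Cd68 and Lyz2 were analysed here, at a sum of 5.08 to 8.32 RPKM in fresh and 0.691 to 3.89 in the cultures. Summed myofibre markers reached 385 RPKM in 1 Tubastatin A library, against at most 57.3 in fresh and 24.7 in vehicle libraries. In that library, replicate 2, Acta1 stood at 311 RPKM, against 3.18 to 3.89 in the other Tubastatin A libraries. The fit shares 1 spread per gene over all groups, so this library also enters the myofibre tests of vehicle against fresh. The part of stress and of other cells in the changes of the family was not tested. In RNA of many cells, fewer cells with a transcript and less of it per cell cannot be told apart.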

How the data were processed

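RNA of 10 libraries, 5 ng per library, was read as 150 bp pairs, per the labels' protocols. The build mm10 and the tools STAR, Trim Galore, edgeR, Subread and featureCounts are named in the submitters' processing notes, and other settings are not given in the sources used here. The deposited table holds values for 12803 genes and does not name their unit. They were taken as RPKM computed by the authors, inferred from the values: times the union exon length of GENCODE M21 and 1 factor per library they gave whole reads within 0.05 reads in all libraries for 12223 genes (95.5%). Reads over the scaled library size were 1.40 to 1.41 in fresh and 0.831 to 0.930 in cultured libraries, so the scaling bears on every comparison with fresh cells. Values below 1 read are a floor that the table holds in place of zeros.

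log2(RPKM + 1) of all genes was fitted with limma 3.58.1 (R 4.3.3), 3 groups in 1 model, variance trend, Benjamini-Hochberg adjustment over all genes and a threshold of 0.05. The fit was also run on simulated data in which few genes changed. Far more genes were called in the real data, so that run does not bear on the calls reported here. Limma's voom was run on the recovered reads where these averaged 10 or more (11953 genes). Other pathway genes could be named where they were among up to 4 genes per list and comparison with the lowest p among those called. Not all of these are given, and which ones are was chosen after their values were seen. Apaf1 is named outside this rule. Members and lists were chosen with earlier results of these data known. Python 3.11.15, pandas 2.3.3 and matplotlib 3.10.9 made the tables and figures. Some results on other genes of the pathway are not reported here.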

Additional observations from a re-analysis of the deposited data

Results flagged for a closer look

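Of the 10 members, each examined over its 4 Tubastatin A libraries, Bid had a library far from the others: Tubastatin A replicate 3 stood at 12.4 RPKM, where the other libraries lay at 15.3, 15.3 and 15.5 RPKM. The gap was 0.916 of the whole range, above the 95% limit of Dixon's test for 4 values. Chance gives a gap above that limit in about 1 in 20 groups, and 10 groups were examined.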

How the results depend on the processing

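The 30 log2 changes (10 members in 3 comparisons) were recomputed under 624 alternatives. Direction and side of the threshold held in 573, a call was lost in 29 and gained in 8, and the sign turned in 14. In many of these alternatives the log2 change could not move. Examples are a library left out of the group not compared, a filter on mean RPKM, and a threshold of 0.01. There only the call could change, so 573 overstates how often the direction was put to a test. Scaling by reads in the table alone raised the median of all genes to 0.33 in vehicle against fresh and 0.40 in Tubastatin A against fresh, and moved the split in vehicle to 6355 higher and 2908 lower genes from 4096 and 4484 (in Tubastatin A against fresh to 6905 and 2596 from 3811 and 4503). With it 6 members were higher and 2 lower in vehicle than fresh instead of 4 and 4, and 6 higher with Tubastatin A than fresh instead of 3. Scaling to the same RPKM sum gave 5 higher and 2 lower in vehicle, and 6 higher and 2 lower with Tubastatin A than fresh instead of 3 and 4. Bmf, the 1 member higher with Tubastatin A than vehicle, was left out by a mean RPKM of at least 1 and lost at a threshold of 0.01, which leaves 0 there. Without 1 library that count was 0 to 1.

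Signs turned for Bbc3 in vehicle against fresh (0.34 by RPKM sum, 0.35 by reads) and for Bad with Tubastatin A against fresh (0.058 by relative log expression, 0.16 by upper quartile, 0.66 by RPKM sum, 0.62 by reads). Leaving out 1 library gave ranges across 0 for Bad (-0.24 to 0.20 with Tubastatin A against fresh, -0.075 to 0.37 in vehicle against fresh), for Mcl1 and Bak1 with Tubastatin A against vehicle (-0.013 to 0.093 and -0.065 to 0.10) and for Bmf with Tubastatin A against fresh (-0.021 to 0.10). These results did not pass as reported, and the cause was not tested.

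The labels do not say that replicate numbers mark shared animals, and deviations of same-numbered libraries correlated between -0.17 and 0.33. With a replicate block, 4 members were higher and 3 lower in vehicle than fresh, 1 higher and 3 lower with Tubastatin A than vehicle, and 3 higher and 4 lower with Tubastatin A than fresh. Bmf in vehicle against fresh (-0.21, adjusted p = 0.054) and Bcl2 with Tubastatin A against vehicle (-0.27, adjusted p = 0.14) lost their calls. The block fit also left out Tubastatin A replicate 4, which has no same-numbered library in the other groups. Without that library and without a block, Bcl2 had the same change and also lost its call (adjusted p = 0.12). The loss for Bcl2 therefore cannot be assigned to the block. Bmf kept its call without that library and without a block (adjusted p = 0.039). Bak1 and Bmf rest on 13 to 110 reads per library, and the part of counting error in their spread was not tested.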
